A study of Mus musculus with 9 samples.

Results

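The MYC, MAX and MXD network was followed in murine Tc17 cells, the CD8+ T cells that make IL-17. Its members were taken by gene symbol: *Myc*, *Max*, *Mxd1*, *Mxd3*, *Mxd4*, *Mxi1*, *Mga*, *Mnt* and *Mlx*. All 9 were among the 41388 genes of the expression matrix, and all 9 were among the 11599 genes that were tested, which averaged 10 normalized counts or more. The cells came from naive CD62L+CD44- CD8+ T cells sorted from lymph node and spleen of C57BL/6 mice. Every group was cultured for 2 days on plate-bound anti-CD3 (5 µg/ml) with anti-CD28 (0.5 µg/ml), IL-2 (50 U/ml), TGF-β (0.5 ng/ml), IL-6 (30 ng/ml) and anti-IFN-γ (5 µg/ml). The control cultures received the solvent dimethyl sulfoxide at 0.2% (Ctrl). The treated cultures received dimethyl fumarate, a drug used in multiple sclerosis, at 20 µM (DMF), or the same dose with the antioxidant glutathione at 50 µM (DMF + GSH). Each group had 3 libraries, with replicate 1 prepared in batch 1 and replicates 2 and 3 in batch 2. The paper's reporting summary gives at least 3 independent biological replicates per experiment. The labels do not say whether the numbers stand for separate animals or cultures, so that p-values measure the spread between these samples. The technical part of that spread was not tested.

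MYC, the MXD proteins, MNT and MGA are transcription factors that bind DNA as pairs, mostly with a common partner, MAX. MYC with MAX recruits coactivators to genes of growth, ribosome production and metabolism, whereas MXD1, MXD3, MXD4, MXI1 and MNT paired with MAX recruit SIN3 and histone deacetylases to the same sequence. MLX is a MAX-like partner that pairs with the glucose-sensing MLXIP and also with some MXD proteins. In T cells, MYC is induced by receptor stimulation and drives the growth that precedes division, and the MXD genes are mostly known from resting and differentiated cells. The question addressed here was which of these genes differed in their transcript levels after DMF, and whether their levels with GSH stood at those of Ctrl.

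The pairs of the network read a short palindrome, the E-box CACGTG, so the members' own promoters were searched for it. The RefSeq promoter table of GRCm38.p6 (250 bases before to 50 after each gene start) held 10 promoters of 8 members. Distances are given for the first base of a match, and the E-box of *Max* begins before the start and runs across it. The following 4 windows are the E-box matches, with 15 bases on either side, read 5′ to 3′ on the strand of the gene and with the E-box in capitals.
Max, 3 bases before the start, chr12:76962231-76962266, minus strand: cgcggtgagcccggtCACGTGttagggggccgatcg
Mxd4, 219 bases before the start, chr5:34187909-34187944, minus strand: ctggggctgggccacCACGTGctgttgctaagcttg
Mnt, 123 bases before the start, chr11:74830786-74830821, plus strand: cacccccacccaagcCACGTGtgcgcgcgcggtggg
Mlx, 40 bases before the start, chr11:101087235-101087270, plus strand: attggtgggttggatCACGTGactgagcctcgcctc

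An E-box was thus found in promoters of 4 of the 8 members, *Max*, *Mxd4*, *Mnt* and *Mlx*, beside 8.09% of all 27025 genes and 7.15% of all 32851 promoters in that table. The members' promoters held 55.0% to 76.7% G and C, above the median of 52.7% over all promoters, and the shares were not matched for this. These letters were not in the promoter windows of *Mxd1*, *Mxd3*, *Mxi1* and *Mga*. Since the study followed AKT, FOXO1 and STAT5 signalling in these cells, the letters GTAAACA, which FOXO factors bind, and TTCNNNGAA, which STAT5 binds, were searched on both strands too. GTAAACA stood once, 231 bases before the *Mxi1* start numbered 3 in the table, and in no other member, beside 4.05% of all genes. In its window at chr19:53329449-53329485 on the plus strand, the match is in capitals.
Mxi1, start 3: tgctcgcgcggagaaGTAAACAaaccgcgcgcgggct
TTCNNNGAA stood in 0 of the 10 promoters of the members, beside 8.3% of all promoters and 9.55% of all genes. With only 10 promoters, a count of 0 is near these shares and is not read as a difference. No member promoter held more than 1 match of these 3 motifs. A match describes letters, not bound sites. The members with an E-box went up (*Max*), down (*Mxd4*) or did not pass the test (*Mnt* and *Mlx*) with DMF when the preparation batch was in the model, as described next.

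The authors deposited normalized counts, in which the reads per gene were divided by 1 factor per library. Between 7671772 and 14511926 reads per library stood behind them, and the members were covered by at least 193 reads, the lowest being *Mxd4* in a DMF library. The summed CD8 T cell markers (Cd8a, Cd8b1, Cd3e, Cd3d, Cd3g and Trac) were at 24976 to 30333 normalized counts in Ctrl, 24825 to 29943 with DMF and 25032 to 32201 with DMF + GSH. Of the markers of other cell types, the 4 CD4 T cell genes summed to 638 to 964 in Ctrl, 1125 to 2529 with DMF and 547 to 999 with DMF + GSH. Most of that sum was *Foxp3* (mean of 1118), while *Cd4* itself had a mean of 1.87. The part of this difference in the values of the network was not tested. The 5 B cell genes stayed between 58.1 and 92 in every library, and NK, γδ T and erythroid sums did not exceed 14.8. The 6 myeloid genes, with *S100a8* at 0, summed to 11.4 to 235 in Ctrl, 9.42 to 29 with DMF and 22.4 to 24.2 with DMF + GSH. In bulk RNA, fewer cells of a type and less RNA per cell cannot be told apart, which holds for every level below.

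With DMF, *Myc* and its partner *Max* were higher and 2 of the MXD repressors, *Mxd1* and *Mxd4*, were lower than in Ctrl. *Myc* rose 1.82-fold and *Max* 1.27-fold, whereas *Mxd1* fell to 0.57 and *Mxd4* to 0.31 of the Ctrl level. These 4 of 9 members passed the test (limma, p adj under 0.05, with the preparation batch in the model), against 28.0% of all genes tested. Called higher were 2 members and 14.6% of all genes, and called lower were 2 members and 13.3% of all genes. *Myc*, *Mxd1* and *Mxd4* also passed the threshold that the study used (p adj under 0.01 and an absolute log2FC of at least 0.75), as 2.89% of all genes did. With only the 6 Ctrl and DMF libraries in the model 0 members passed that threshold, and 0 did without Ctrl replicate 1, Ctrl replicate 2, DMF replicate 1, DMF replicate 3 or DMF + GSH replicate 1. The 3 libraries of either group did not overlap for 6 of the 9 members, the 4 above and *Mxd3* and *Mlx*, which was so for 41.3% of all genes. When the replicate number, by which the samples pair, took the place of the batch, *Mxd3* and *Mlx* were called as well, making 6 of 9 beside 45.0% of all genes.

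The number of calls in the model with the batch rested on single libraries. Without DMF replicate 1, 0 members and 111 genes were called, where all libraries gave 4 members and 3242 genes. *Myc* then had a log2FC of 0.73 (p adj = 0.0539, limma), *Max* of 0.34 (p adj = 0.104), *Mxd1* of -0.81 (p adj = 0.0573) and *Mxd4* of -1.58 (p adj = 0.0666). Without Ctrl replicate 1, 2 members and 629 genes were called, *Max* (p adj = 0.0925) and *Mxd4* (p adj = 0.0566) being lost. Without DMF replicate 2, *Max* was lost (log2FC 0.28, p adj = 0.0536), while *Mxd3* was called, as it was without Ctrl replicate 3 or DMF + GSH replicate 2. *Mlx* was called without DMF + GSH replicate 3. Without Ctrl replicate 2 or DMF replicate 3 the 4 members stayed called, but the genes called dropped to 1161 and 957. Replicate 1 is the only number of batch 1, so that leaving out Ctrl replicate 1 or DMF replicate 1 removes 1 of the 2 groups compared from that batch. In the model with the replicate block, *Myc*, *Max*, *Mxd1*, *Mxd3* and *Mxd4* stayed called in each of the 9 fits that left out 1 library, and *Mlx* in 5 of the 9.

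**Figure D1:**
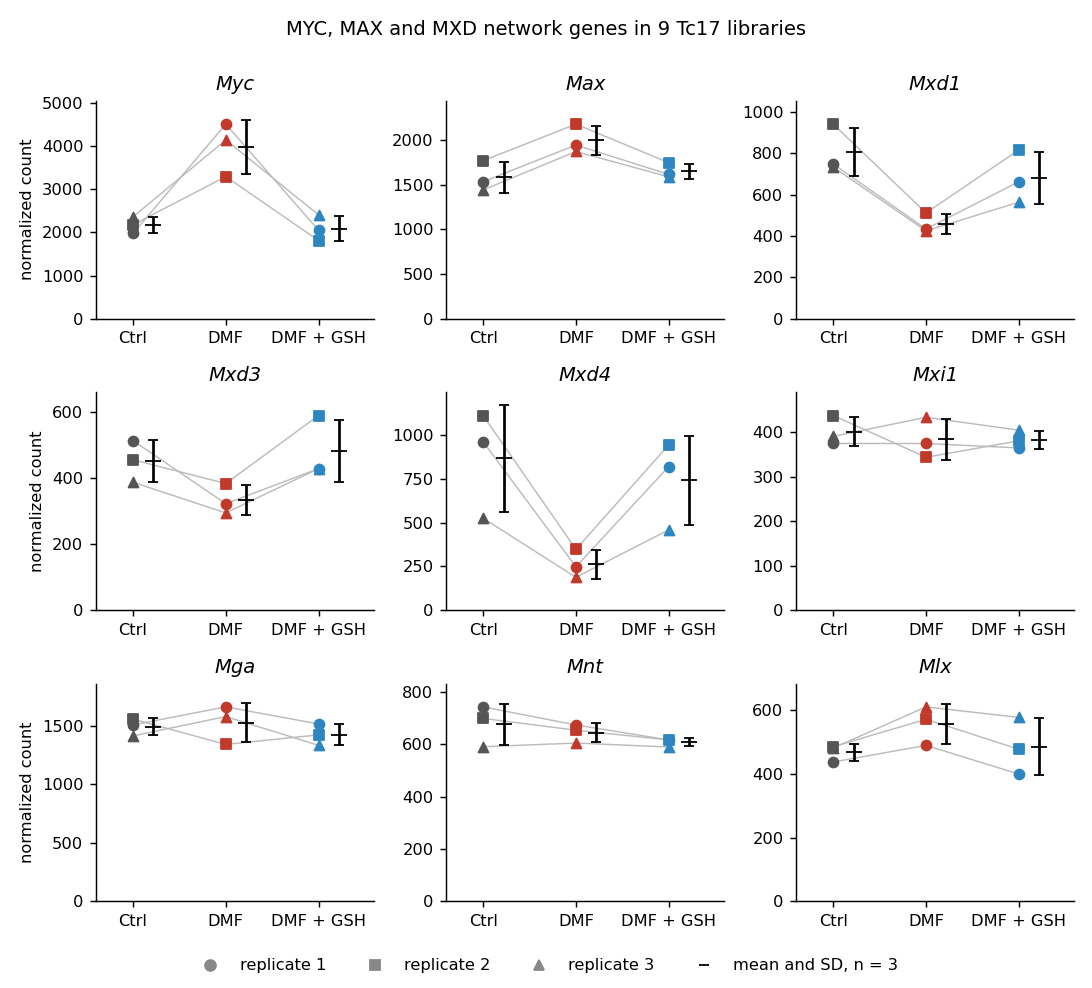
Normalized counts (y axis, linear from 0) of the 9 network genes in each library of Ctrl, DMF and DMF + GSH, with grey lines joining libraries of the same replicate number and black bars for the mean and SD of 3 libraries. The DMF points of Myc lie above, and those of Mxd1 and Mxd4 below, all Ctrl and DMF + GSH points.

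*Myc* (ENSMUSG00000022346, chr15:61985391-61990374, plus strand, GRCm38), the growth-promoting factor of the network, had 1977, 2178 and 2363 normalized counts in Ctrl replicates 1, 2 and 3. The DMF libraries had 4514, 3297 and 4147, the DMF + GSH libraries 2051, 1812 and 2408. All 3 DMF libraries stood above all 6 others. The log2FC of DMF against Ctrl was 0.87 (SE 0.135, 95% interval 0.57 to 1.17, p adj = 0.00554, limma). Within replicates 1, 2 and 3 it was 1.19, 0.60 and 0.81, and *Myc* lay above 97.7% of the tested genes when these were ordered by log2FC. Per kilobase of exon, *Myc* was the most abundant member in both groups, with 800 ± 71.2 normalized counts in Ctrl and 1467 ± 230 with DMF (mean ± SD, n = 3).

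*Max* (ENSMUSG00000059436, chr12:76937269-76962201, minus strand) encodes the common partner of MYC and the MAX-dependent repressors. It had 1532, 1767 and 1440 normalized counts in Ctrl, 1942, 2176 and 1870 with DMF. With DMF + GSH it had 1614, 1745 and 1586. The DMF libraries were again the highest 3 of the 9, by a smaller step than for *Myc*. The log2FC was 0.34 (SE 0.0908, 0.14 to 0.54, p adj = 0.0225) and differed little between the replicate numbers, at 0.34, 0.30 and 0.38. Per kilobase of exon, *Max* was second to *Myc*, at 439 ± 46.8 in Ctrl and 555 ± 44.5 with DMF.

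*Mxd4* (ENSMUSG00000037235, chr5:34173883-34187720, minus strand), a MAX-dependent repressor, had the largest change of the network. Its normalized counts were 962, 1112 and 525 in Ctrl, 247, 347 and 187 with DMF. In the DMF + GSH libraries they were 820, 944 and 458. The groups did not overlap, although replicate 3 was the lowest in each of them and replicate 2 the highest. The log2FC was -1.71 (SE 0.333, -2.45 to -0.96, p adj = 0.00838), and only 0.5% of the tested genes lay below it. Within the replicate numbers it was -1.96, -1.68 and -1.49, and with the replicate block the SE narrowed to 0.0866 (p adj = 1.16e-10). *Mxd4* shares 514 exon bases with the antisense gene Gm42846 on the other strand, and whether the reads were counted by strand is not stated in the labels or methods.

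*Mxd1* (ENSMUSG00000001156, chr6:86647042-86669161, minus strand), the founding MXD repressor, had 749, 942 and 734 normalized counts in Ctrl, 434, 512 and 425 with DMF. The DMF + GSH libraries had 663, 817 and 564. The DMF libraries were the lowest 3, with no overlap. Its log2FC was -0.82 (SE 0.145, -1.14 to -0.50, p adj = 0.00678), and within the replicate numbers it was -0.79, -0.88 and -0.79.

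*Mxd3* (ENSMUSG00000021485, chr13:55325168-55329823, minus strand), an MXD gene known from proliferating cells, had 513, 455 and 387 normalized counts in Ctrl, 322, 383 and 294 with DMF. The DMF + GSH libraries had 428, 589 and 428. The highest DMF library, replicate 2, lay just under the lowest Ctrl library, replicate 3, so the groups came close without overlap. The log2FC of -0.44 (SE 0.159, -0.79 to -0.08) did not pass the test with the batch (p adj = 0.0643), but the replicate block called it (p adj = 0.00127), as did DESeq2 on the recovered reads (-0.45, p adj = 0.0414). *Mxd3* shares 105 exon bases with Prelid1 on the other strand, a gene with 2576 to 5078 reads per library, while *Mxd3* itself had 272 to 793.

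*Mxi1* (ENSMUSG00000025025, chr19:53310518-53375810, plus strand), also named Mxd2, stood apart from the other MXD genes in that its groups overlapped in all 3 comparisons. It had 375, 438 and 391 normalized counts in Ctrl and 375, 344 and 434 with DMF. Its log2FC of -0.07 (-0.29 to 0.16, p adj = 0.654) had no common sign across replicates, at 0.00, -0.35 and 0.15. *Mxi1* shares 194 exon bases with Gm10197, which had 0 reads in every library. The intervals of *Mxi1* and *Mxd4* did not overlap, but the difference between genes was not tested.

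*Mlx* (ENSMUSG00000017801, chr11:101087277-101092207, plus strand), the MAX-like partner, had 438, 486 and 482 normalized counts in Ctrl, 490, 572 and 611 with DMF. The DMF + GSH libraries had 400, 478 and 578. The DMF libraries stood above those of Ctrl, but overlapped with DMF + GSH. The log2FC was 0.25 (SE 0.094, 0.04 to 0.46, p adj = 0.0762), with 0.16, 0.23 and 0.34 within the replicate numbers, and the replicate block gave p adj = 0.0186. *Mlx* shares 385 exon bases with Psmc3ip, which had 126 to 272 reads.

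*Mnt* (ENSMUSG00000000282, chr11:74830920-74845725, plus strand), a broadly expressed MAX-dependent repressor, had 742, 698 and 590 normalized counts in Ctrl and 673, 653 and 604 with DMF. *Mga* (ENSMUSG00000033943, chr2:119897228-119969581, plus strand), a very large protein that joins MAX to a Polycomb complex, had 1509, 1559 and 1415 in Ctrl and 1663, 1342 and 1580 with DMF. Neither passed the test, and for both the groups overlapped. The log2FC was -0.07 for *Mnt* (-0.26 to 0.12, p adj = 0.58) and 0.03 for *Mga* (-0.15 to 0.21, p adj = 0.819), so the intervals leave no room for a change of the size seen for *Myc* or *Mxd1*.

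**Figure D2:**
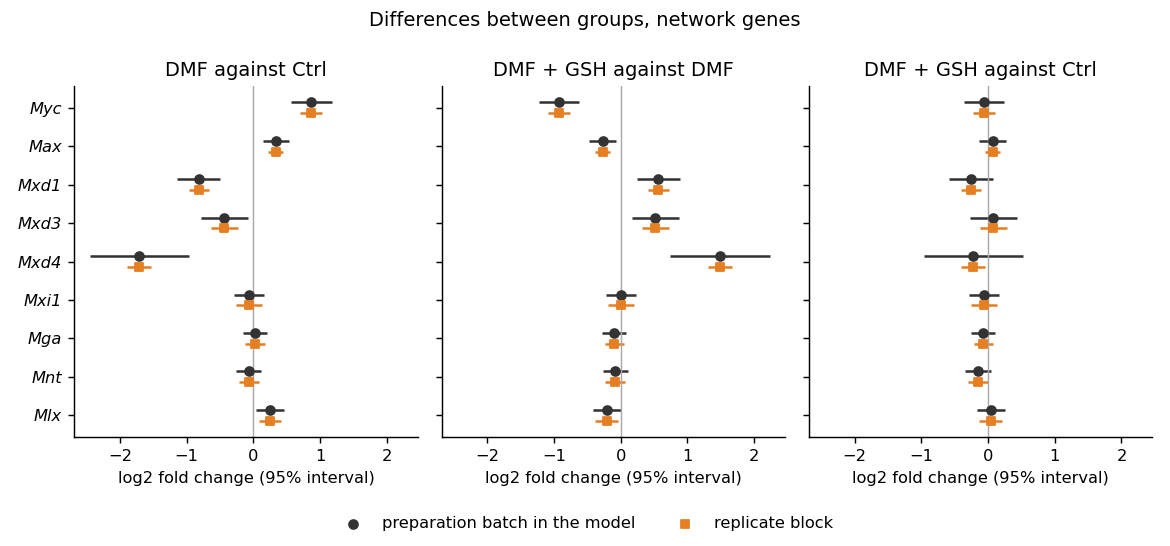
Log2 fold change of each network gene (x axis) with its 95% interval in the 3 comparisons, with the preparation batch in the model (dark circles) or the replicate block (orange squares). With DMF the interval of Mxd4 spans -2.45 to -0.96 in the first model, and the block narrows it around the same estimate, whereas for DMF + GSH against Ctrl all intervals of the first model include 0.

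The order of the members by level per kilobase of exon in Ctrl was *Myc*, *Max*, *Mlx* (234 ± 13.4), *Mxd3* (191 ± 26.8), *Mnt* (146 ± 16.9), *Mxd1* (114 ± 16.4), *Mxd4* (102 ± 36.0), *Mga* (97.4 ± 4.76) and *Mxi1* (58.8 ± 4.75). The ranges of mean ± SD of neighbours in this order overlapped between *Mnt* and *Mxd1*, *Mxd1* and *Mxd4*, and *Mxd4* and *Mga*, and not between the others. With DMF, *Mxd4* (30.6 ± 9.53) was the last of the 9, and *Mxd1* (64.6 ± 6.77) overlapped with *Mxi1* (56.3 ± 6.67). The order in Ctrl depended on the length used. Per kilobase of the longest coding transcript, *Myc* (929 ± 82.7) and *Max* (813 ± 86.7) overlapped, *Mxd3* (340 ± 47.8) stood above *Mlx* (238 ± 13.7), and *Mxd4* (224 ± 78.8) and *Mxd1* (173 ± 24.9) had higher means than *Mnt* (147 ± 17.0) but overlapped with it. With DMF, *Mxd4* had the lowest mean by that length too, at 67.1 ± 20.9, but overlapped with *Mxi1* at 76.3 ± 9.03.

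To set *Myc* beside the MXD genes, it was divided by the sum of *Mxd1*, *Mxd3*, *Mxd4* and *Mxi1*, each per kilobase of exon. The sum is only a part of the repressing arm, since it leaves out *Mnt*. Per kilobase of exon, *Mnt* had 146 ± 16.9 in Ctrl and 139 ± 7.67 with DMF. Including *Mnt* would make the ratio smaller in every library, and a ratio with it was not computed. This ratio was 1.48, 1.54 and 2.25 in Ctrl replicates 1, 2 and 3. The DMF libraries had 5.91, 3.73 and 5.66, the DMF + GSH libraries 1.78, 1.26 and 2.37. The 3 DMF libraries stood above the other 6 and the remaining groups overlapped, also per kilobase of the longest coding transcript (0.971 to 1.53 in Ctrl, 2.54 to 4.08 with DMF and 0.826 to 1.60 with DMF + GSH). The ratio restates the levels above and describes transcripts, not proteins.

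**Figure D3:**
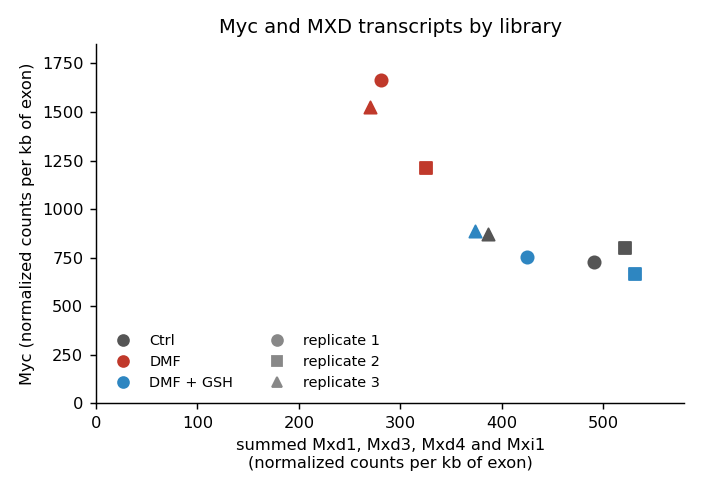
Myc (y axis) against the summed Mxd1, Mxd3, Mxd4 and Mxi1 (x axis), both in normalized counts per kilobase of exon, for the 9 libraries, coloured by group and shaped by replicate number. The DMF libraries lie at the upper left, with 1213 to 1662 for Myc and 270 to 325 for the sum, apart from the Ctrl and DMF + GSH libraries.

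With GSH added to DMF, *Myc* was lower and *Mxd1*, *Mxd3* and *Mxd4* were higher than with DMF alone. *Myc* was 0.53 of the DMF level, *Mxd1* 1.48-fold, *Mxd3* 1.44-fold and *Mxd4* 2.80-fold higher, and these 4 of 9 members were called, beside 22.3% of all genes. Of all genes, 9.99% were called higher, as were *Mxd1*, *Mxd3* and *Mxd4*, and 12.4% lower, as was *Myc*. The study's threshold was passed by *Myc* only, and by 0.543% of all genes. The groups did not overlap for 5 of the 9 members (*Myc*, *Max*, *Mxd1*, *Mxd3* and *Mxd4*), as for 38.3% of all genes. This comparison uses the same DMF libraries as the one before, so opposite signs are not independent of it.

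The log2FC of DMF + GSH against DMF was -0.93 for *Myc* (SE 0.135, -1.23 to -0.63, p adj = 0.00809), with -1.14, -0.86 and -0.78 within the replicate numbers. It was 1.49 for *Mxd4* (SE 0.333, 0.74 to 2.23, p adj = 0.016), with 1.73, 1.44 and 1.29. *Mxd1* had 0.56 (0.24 to 0.89, p adj = 0.0241) and *Mxd3* 0.52 (0.17 to 0.88, p adj = 0.0417), both higher within all 3 numbers. *Max* (log2FC -0.27, -0.48 to -0.07) missed the threshold with the batch (p adj = 0.0551), but the replicate block called it (p adj = 0.000534). *Mlx* likewise had -0.21 (-0.42 to 0.00, p adj = 0.133) and p adj = 0.0454 with the block. The block thus called 6 of 9 members, where it called 41.5% of all genes. *Mxi1* (0.00, -0.22 to 0.23), *Mga* (-0.10, -0.28 to 0.08) and *Mnt* (-0.08, -0.27 to 0.11) did not pass the test in either model with all libraries.

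Here too single libraries decided the calls of the model with the batch. It called 0 members when DMF replicate 1 was left out (15 genes), as it did when the first DMF + GSH library was (10 genes). *Myc* then had a log2FC of -0.79 (p adj = 0.0797) and -0.90 (p adj = 0.0829). Without DMF replicate 3 or DMF + GSH replicate 2, *Myc* was the 1 member called (106 and 143 genes). Without Ctrl replicate 1 or Ctrl replicate 2, *Mxd3* was lost (p adj = 0.0515 and 0.0508), while *Max* was called without Ctrl replicate 2 or Ctrl replicate 3. With the replicate block, *Myc*, *Max*, *Mxd1*, *Mxd3* and *Mxd4* were called whichever library was left out, and *Mlx* in 3 of 9 fits. With the batch, *Mlx* was called without DMF + GSH replicate 3 (-0.31, p adj = 0.0315). With the block, *Mga* was called lower without DMF replicate 2 (-0.20, p adj = 0.0245), in 1 of its 30 alternatives.

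**Figure D4:**
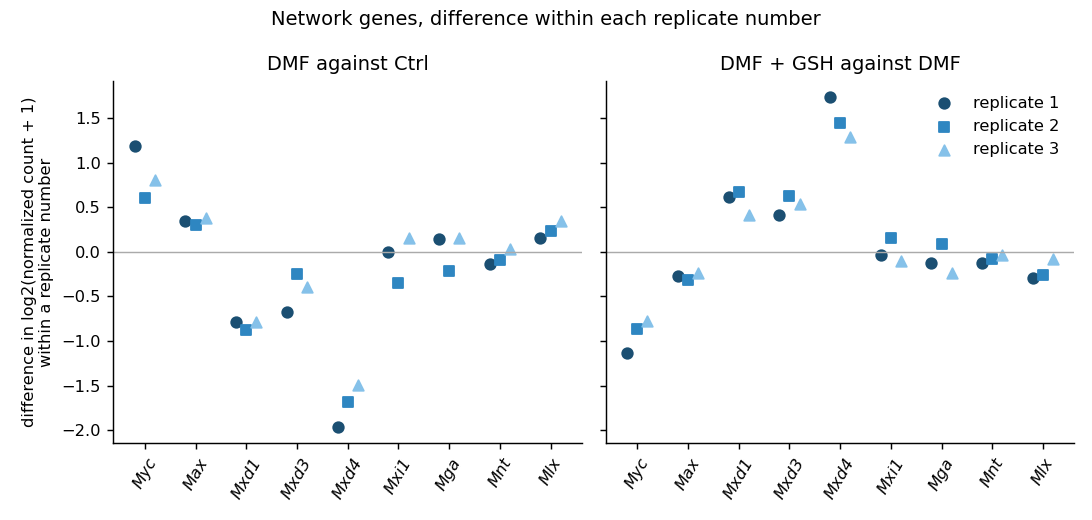
Difference in log2(normalized count + 1) of each network gene within replicate numbers 1, 2 and 3 (y axis), for DMF against Ctrl and DMF + GSH against DMF, 1 point per number. Myc, Max, Mxd1, Mxd3, Mxd4 and Mlx have 3 points on 1 side of 0 in each panel, and the 2 panels share the DMF libraries.

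DMF + GSH and Ctrl overlapped for all 9 members, and 0 members were called, by limma with the batch, with the replicate block, or by voom, edgeR or DESeq2 on reads recovered from the deposited values. Of all genes, 0% were called with the batch (222 had an unadjusted p under 0.05), 0.0345% with the block and 4.47% had groups that did not overlap. *Myc* had a log2FC of -0.06 (-0.36 to 0.24) and *Max* of 0.07 (-0.14 to 0.27), each with mixed signs across the replicate numbers. *Mxd1* was lower with DMF + GSH in all 3 numbers, at -0.18, -0.20 and -0.38, which gave -0.25 (-0.58 to 0.07, p adj = 1, and 0.435 with the block). *Mxd4* was lower in all 3 numbers as well, at -0.23, -0.24 and -0.20, which gave -0.22 (-0.96 to 0.52, p adj = 1, and 0.802 with the block). The intervals with the block excluded 0 for these 2 genes (-0.40 to -0.10 for *Mxd1* and -0.40 to -0.04 for *Mxd4*), but these are not adjusted for the number of genes. The interval of *Mxd4* with the batch is too wide to set its level with GSH equal to that of Ctrl. *Mxd3* (0.08), *Mxi1* (-0.06), *Mga* (-0.07), *Mnt* (-0.15) and *Mlx* (0.04) had intervals with the batch that included 0. Of these, *Mnt* did not have a higher value with DMF + GSH in any replicate number, at -0.27, -0.18 and 0.00, and its interval with the block was -0.30 to 0.00.

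Genes of partners, regulators and targets of the network were then looked at, by transcript level, as lists written from general knowledge. The lists were written with earlier results of these data known, so that their counts are no independent evidence. Each list is described by its counts beside the 14.6% of all genes called higher and the 13.3% called lower with DMF, and beside a median log2FC of 0.005 over all genes. Of 11 corepressor genes of MXD and MNT, 1 rose and 1 fell (median 0.07). These were *Hdac2*, a histone deacetylase, at 0.37 (p adj = 0.0202), and *Ncor1*, a corepressor scaffold, at -0.25 (p adj = 0.0368). *Sin3a*, the scaffold that MXD proteins contact, had -0.17 (p adj = 0.0777, and 0.022 with the replicate block). Of 14 MYC coactivator genes, 4 rose and 1 fell (median 0.09). The helicases *Ruvbl2* and *Ruvbl1* had 0.60 (p adj = 0.012) and 0.56 (p adj = 0.0167), *Wdr5*, a histone methylation cofactor, had 0.52 (p adj = 0.0116), and the acetyltransferase *Ep300* had -0.60 (p adj = 0.00248).

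Although *Mga* itself did not pass the test, 6 of 10 partners of its Polycomb complex rose and 0 fell (median 0.30). *Yaf2* had 0.51 (p adj = 0.0156), *Rybp* 0.47 (p adj = 0.0415), *Pcgf6* 0.37 (p adj = 0.0228), *Tfdp1* 0.35 (p adj = 0.0286) and *L3mbtl2* 0.27 (p adj = 0.0444). Of 11 genes that act on the stability of MYC protein, 1 rose and 3 fell (median -0.07). The fallen genes were *Usp28*, a deubiquitinase that stabilizes MYC, at -0.74 (p adj = 0.0124), and the ubiquitin ligase subunits *Fbxo32* at -0.68 (p adj = 0.0416) and *Fbxw7*, which marks MYC for degradation, at -0.25 (p adj = 0.0423). The gene that rose was the deubiquitinase *Usp36* (0.43, p adj = 0.0114). Among 5 tested factors related to MYC or MLX, 1 rose, *Tfap4*, itself a target of MYC (0.52, p adj = 0.0307). *Mlxip*, the partner of MLX, had -0.07 (p adj = 0.614).

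Of the lists of known MYC targets, those of the nucleolus and of translation rose in full with DMF. All 20 nucleolar genes, which serve ribosome production, rose (median 0.74). *Rrp9* had 0.93 (p adj = 0.00722), *Nop2* 0.87 (p adj = 0.0064), *Mybbp1a* 0.87 (p adj = 0.0085), *Polr1b*, a subunit of RNA polymerase I, 0.84 (p adj = 0.00667) and nucleolin, *Ncl*, 0.77 (p adj = 0.00781). All 10 translation genes rose (median 0.57), among them *Eef1e1* (0.91, p adj = 0.00602), *Eif4ebp1* (0.74, p adj = 0.00743), *Pabpc4* (0.70, p adj = 0.0144) and *Eif5a* (0.60, p adj = 0.0276). Of 14 genes of polyamine and nucleotide synthesis, 9 rose and 0 fell (median 0.51). Spermidine synthase, *Srm*, had the largest rise in the lists, from 1077 ± 312 normalized counts in Ctrl to 2577 ± 486 with DMF (log2FC 1.28, p adj = 0.00661), whereas *Odc1*, a textbook MYC target at the head of the same pathway, had 0.37 (p adj = 0.0195). The purine gene *Gart* (0.72, p adj = 0.00958), the pyrimidine gene *Cad* (0.68, p adj = 0.0149) and *Ppat* (0.65, p adj = 0.01) rose too.

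Of 14 genes of glucose and glutamine use, 8 rose and 0 fell (median 0.30). Those with the largest rises were the amino acid transporter subunits *Slc7a5* (0.94, p adj = 0.015) and *Slc3a2* (0.62, p adj = 0.0169) and the one-carbon enzymes *Shmt2* (0.64, p adj = 0.014) and *Mthfd2* (0.51, p adj = 0.00567). Of the glucose genes in the list, *Hk2*, the first enzyme of glycolysis, rose (0.49, p adj = 0.0199). *Slc2a1*, *Ldha*, *Eno1*, *Pkm*, *Pgk1* and *Tpi1* had -0.13 to 0.16 and did not pass the test with the batch. Of these, the replicate block called only *Ldha* (0.16, p adj = 0.136 with the batch and 0.0249 with the block). The glucose genes were singled out after their values were seen. Of 8 cell cycle targets, 3 rose and 1 fell (median 0.26), with *Ccnd2* at 0.54 (p adj = 0.0064), *Cdc25a* at 0.44 (p adj = 0.038), *Cdk4* at 0.32 (p adj = 0.0116) and *E2f2* at -0.67 (p adj = 0.00849). The 8 tested genes that MYC is known to repress with MIZ1 did not share a direction, since 4 fell and 2 rose (median -0.45). The cell cycle inhibitor *Cdkn1b* had -0.87 (p adj = 0.00785) and *Ndrg1* -0.72 (p adj = 0.0455). The other cell cycle inhibitor *Cdkn1a* rose by 0.90 (p adj = 0.047) and the stress gene *Gadd45b* by 1.10 (p adj = 0.0107). Of 4 targets of MLX, 1 fell, *Txnip*, an inhibitor of glucose uptake (-0.92, p adj = 0.0157), from 1673 ± 436 normalized counts in Ctrl to 870 ± 137.

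**Figure D5:**
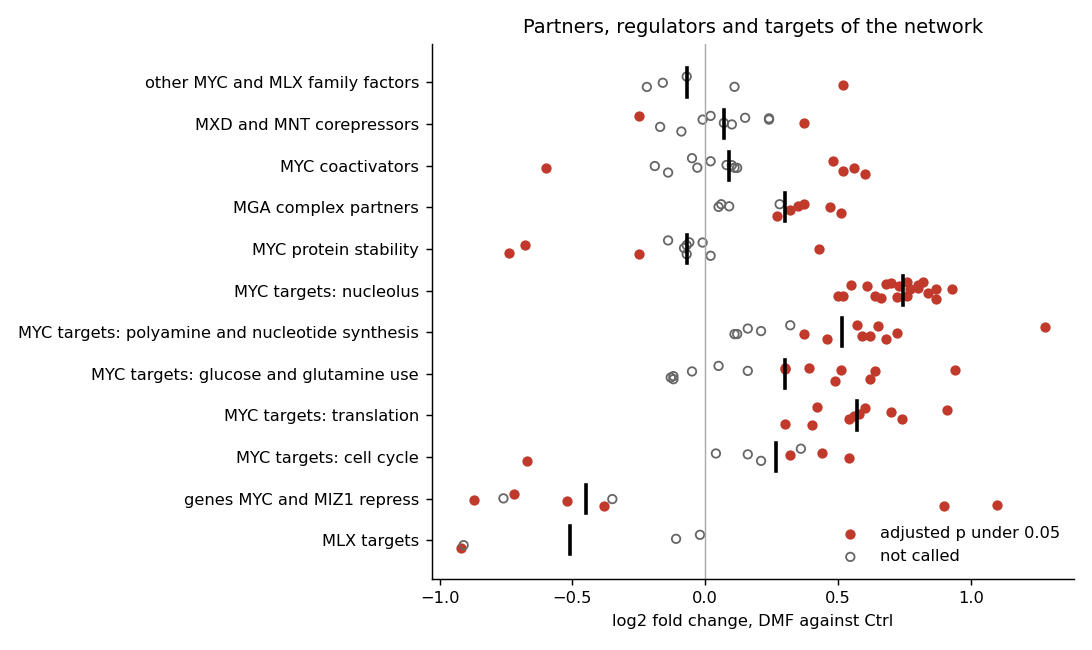
Log2 fold change of DMF against Ctrl (x axis) for the tested genes of 12 lists of partners, regulators and targets of the network, 1 point per gene, red where the adjusted p was under 0.05 and open otherwise, with a black bar at the list's median. All points of the nucleolar list lie between 0.50 and 0.93, and those of the MYC and MIZ1 list lie on both sides of 0.

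With the replicate block, which called 45.0% of all genes in either direction, more list genes passed for DMF against Ctrl. The cell cycle targets then had 5 rises and 1 fall, the coactivators 4 and 3, the corepressors 2 and 2, the factors related to MYC or MLX 1 and 1, and the genes repressed with MIZ1 2 and 5. Polyamine and nucleotide genes had 11 rises, glucose and glutamine genes 9, MGA partners 7, and of the MLX targets 2 fell. Among the genes added were *Btg2*, repressed with MIZ1 (-0.76, p adj = 0.113 with the batch and 1.55e-05 with the block), and the MLX target *Arrdc4* (-0.91, p adj = 0.164 and 0.0302), both chosen here after their values were seen. The counts of the nucleolar, translation and MYC stability lists were the same in both models.

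The counts with the batch shared the dependence on single libraries. Without DMF replicate 1, 0 nucleolar, 0 translation, 0 polyamine and nucleotide, 0 glucose and glutamine and 0 MGA partner genes were called with the batch in the model. Without Ctrl replicate 1 they were 5, 2, 1, 1 and 0, without Ctrl replicate 2 they were 16, 3, 6, 3 and 0, and without DMF replicate 3 they were 11, 3, 4, 2 and 0. With the replicate block, by contrast, 20 nucleolar, 9 to 10 translation, 11 polyamine and nucleotide, 8 to 9 glucose and glutamine and 5 to 7 MGA partner genes were called higher whichever library was left out. With all libraries, edgeR on the recovered reads called 20, 10, 10, 8 and 6 of them, and DESeq2 20, 9, 9, 8 and 4. With the batch and 1 library left out, the MYC stability genes had 0 to 1 rises and 0 to 3 falls. The genes repressed with MIZ1 had 0 to 2 and 0 to 5, and the coactivators 0 to 4 and 1. Cell cycle targets had 0 to 4 and 0 to 1, corepressors 0 to 2 and 0 to 1. With the block, the stability genes had 1 to 2 rises and 2 to 3 falls, and the genes repressed with MIZ1 2 and 5.

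With GSH added to DMF, 20 of 20 nucleolar genes (median -0.76), 10 of 10 translation genes (median -0.54), 9 of 14 polyamine and nucleotide genes (median -0.49) and 7 of 14 glucose and glutamine genes (median -0.25) were called lower than with DMF alone, and 3 of 10 MGA partners were, where 12.4% of all genes were called lower and 9.99% higher. The replicate block, which called 41.5% of all genes in either direction, called 13 of 14 polyamine and nucleotide genes, 10 of 14 glucose and glutamine genes and 6 of 10 MGA partners lower. It called 20 nucleolar and 10 translation genes lower, as the model with the batch did. Among the glucose genes that the block added were *Ldha* (-0.21, p adj = 0.0672 with the batch and 0.00484 with the block) and *Eno1* (-0.18, p adj = 0.0571 and 0.00822). Of the genes repressed with MIZ1, 3 were higher and 1 lower with the batch, and 6 and 2 with the block, and of the 4 MLX targets 1 and 3 were higher. The coactivators went from 1 higher and 4 lower to 3 and 5, the corepressors from 0 and 1 to 3 and 2, and the MYC stability genes from 1 and 1 to 3 and 1. The cell cycle targets went from 1 and 3 to 1 and 4, and the factors related to MYC or MLX from 0 and 1 to 1 and 2. *Txnip* was higher (0.92, p adj = 0.0191) and *Cdkn1b* was too (0.76, p adj = 0.0157). In this comparison, leaving out DMF replicate 1 or DMF + GSH replicate 1 left 0 nucleolar genes called, leaving out DMF replicate 3 left 1 and leaving out DMF + GSH replicate 2 left 2, but 20 with the replicate block whichever library was left out. Leaving out any of these 4 libraries left 0 translation, 0 polyamine and nucleotide, 0 glucose and glutamine and 0 MGA partner genes called lower with the batch, and leaving out Ctrl replicate 1 left 5 translation genes. Without any of these 4 libraries, 0 genes were called in either direction among the MIZ1, MLX, MYC stability, cell cycle and corepressor lists. The same held for the factors related to MYC or MLX, and at most 1 coactivator was called. Against Ctrl, 0 genes of any list were called with DMF + GSH.

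Over the 9 libraries, after subtraction of the mean of each replicate number, the 5 genes with the pattern most like that of *Myc* were *Sdad1* (Pearson r of 0.998), *Polr1b*, *Trmt6* and *Eif3d* (0.997 each) and *Nono* (0.996), out of 8742 genes with a mean of at least 100. Their sizes of change differed, from a log2FC of 0.84 for *Polr1b* to 0.12 for *Nono* with DMF. The 5 most like *Mxd4* were *Zc3hav1*, *St6gal1*, *Abtb1*, *Nav2* and *Syt11*, each with an r of at least 0.998, and with log2FC from -0.46 for *Zc3hav1* to -3.06 for *Nav2*. Within the network, the r with *Myc* was 0.946 for *Max*, 0.818 for *Mlx*, 0.461 for *Mga*, 0.089 for *Mnt*, -0.043 for *Mxi1*, -0.898 for *Mxd1*, -0.935 for *Mxd3* and -0.967 for *Mxd4*. The members with a strong r are those whose DMF libraries stood apart from Ctrl. These values describe likeness only, since the libraries fall into DMF and the rest, so that genes that differ between these correlate.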

How the data were processed

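According to the study's methods, poly(A) libraries were sequenced as single reads, aligned to GRCm38 with STAR (2.4.0b in the submitters' processing notes), counted per gene with featureCounts and fitted with DESeq2. The authors deposited normalized counts, that is, read counts (signal) divided by 1 factor per library. Their own log2 fold change, its test score and its p-value for Ctrl and DMF, deposited beside them, were not used. Whole reads were recovered for 100% of the values (tolerance 0.01) by dividing by the smallest positive value of a library, taken as a single read. Reads per library were 7671772 to 11589246 (median 10401056) in Ctrl, 10382638 to 12669991 (11572657) with DMF and 9753478 to 14511926 (11152111) with DMF + GSH.

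The test was limma-trend (limma 3.58.1, R 4.3.3) with terms for group and batch, fitted to log2(normalized count + 1) over all 9 libraries and 11599 genes with a mean of at least 10, with Benjamini-Hochberg adjustment over these genes. A fold change on this scale understates that of low genes. The replicate numbers, which come from the labels, paired the samples: once group means were removed, the 9 same-number pairs of libraries correlated with 0.447 to 0.578 over genes, the 18 others with -0.471 to -0.0621. The replicate block is therefore given where it changes a member's call or a list's count. Tests were checked on simulated data.

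Tried as alternatives were a pseudocount of 0.5 or 4, a minimum mean of 50 or none, TMM or median-ratio rescaling, no batch term, only the 6 libraries compared, voom, edgeR 4.0.16 and DESeq2 1.42.0 on recovered reads, and each library left out. Alternatives for the list counts were chosen after seeing the data. Named were all members, up to 4 called genes per list with the largest absolute log2FC, genes of textbook role, and the 5 genes most like *Myc* and *Mxd4*. The members and lists were chosen with earlier results of these data known. Positions are from GENCODE vM21, promoters from RefSeq. *Myc* was not matched in the promoter table. The result for 1 list gene is not reported here.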

Additional observations from a re-analysis of the deposited data

How the results depend on the processing

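With the replicate block in place of the batch, 5224 genes were called for DMF against Ctrl, 4814 for DMF + GSH against DMF and 4 for DMF + GSH against Ctrl, where the batch model gave 3242, 2592 and 0. With 1 library left out, genes called ranged from 111 to 3790 for DMF against Ctrl and from 10 to 3099 for DMF + GSH against DMF, and members called from 0 to 5 in both. In every fit without a library, *Myc* and *Max* stayed higher and *Mxd1*, *Mxd3* and *Mxd4* lower with DMF, *Myc* between 0.73 and 1.01 and *Mxd4* between -2.03 and -1.44 over all 30 alternatives. The study's threshold, passed by 335 genes and 3 members for DMF against Ctrl, was passed by 789 genes with the block, 551 with DESeq2 and 43 (0 members) with only the 6 libraries compared. Without 1 library it was passed by 2 to 681 genes and 0 to 3 members, with 0 members without Ctrl replicate 1 or 2, DMF replicate 1 or 3 or DMF + GSH replicate 1.

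Signs turned only where a library was left out, in genes not called. For DMF against Ctrl, *Mga* ranged from -0.02 to 0.11 and *Mxi1* from -0.15 to 0.03, and with the replicate block *Mga* from -0.04 to 0.13 and *Mxi1* from -0.15 to 0.04. For DMF + GSH against DMF, *Mxi1* ranged from -0.10 to 0.09, and with the block from -0.10 to 0.08. For DMF + GSH against Ctrl, *Max* ranged from -0.01 to 0.15, *Mlx* from -0.06 to 0.10, *Mxd3* from -0.08 to 0.23, *Mxd4* from -0.54 to 0.08 and *Myc* from -0.18 to 0.04. With the block, *Mga* ranged from -0.12 to 0.01, *Mlx* from -0.05 to 0.10, *Mxd3* from -0.03 to 0.23, *Mxi1* from -0.14 to 0.04 and *Myc* from -0.17 to 0.06. The cause was not tested. The lowest value of a member rests on 193 reads, and the part of depth in these turns was not tested.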
